A study of Mus musculus with 2 samples.

Results

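The glutathione synthesis and thioredoxin system was followed through 10 genes, named for their place in the pathway, with earlier results of these data known. They are Gclc, Gclm, Gss, Gsr, Txn1, Txn2, Txnrd1, Txnrd2, Txnip and Slc7a11, and they stand among 21461 nuclear protein-coding genes and 42462 annotated genes in all. They were measured in polyadenylated RNA of G1E-ER4, a mouse erythroid line made from Gata1-null cells in which GATA-1 joined to an oestrogen receptor domain becomes active with hormone. All the cells had received 10 nM 17beta-estradiol for 24 hours, so that every value below describes induced cells. Both libraries, biological replicate 1 and biological replicate 2, belong to this group, and no uninduced library was analysed here. The line is a cultured model whose GATA-1 activity comes from the fusion protein, and the levels of both libraries are therefore those of 1 line under 1 treatment.

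Glutathione is a tripeptide made in the cytosol. Glutamate-cysteine ligase, a catalytic subunit (GCLC) with a modifier subunit (GCLM), joins glutamate to cysteine, glutathione synthetase (GSS) then adds glycine, and glutathione reductase (GSR) returns the oxidised form to the thiol with NADPH. Thioredoxin is a small protein whose pair of active-site cysteines reduces disulfides in other proteins, and thioredoxin reductase, a selenoprotein, recharges it with NADPH. The cytosolic pair is encoded by Txn1 and Txnrd1 and the mitochondrial pair by Txn2 and Txnrd2. TXNIP, an alpha-arrestin, binds thioredoxin and lowers glucose uptake, and SLC7A11 is the light chain of the exchanger that imports cystine. Red cells carry haemoglobin iron and oxygen together, and both thiol systems are part of how they handle peroxides.

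The cytosolic and mitochondrial forms encode the same residues at the sites where these enzymes work and differ there in a few bases. The sites are shown because they show which transcripts hold the bases of the redox centre. Each was located on the leading complete coding transcript in GENCODE M21 and is given from 5′ to 3′ on the gene's strand, with the cysteine codons of the redox pair in capitals, or the in-frame UGA codon that is read as selenocysteine, written TGA.
Txn1-201, active site: tggTGTggacctTGC
Txn2-201, active site: tggTGTggccccTGC
Txnrd1-201, flavin-side cysteines: TGTgtgaatgtgggtTGC
Txnrd2-203, flavin-side cysteines: TGTgtcaacgtgggtTGC
Gsr-201, flavin-side cysteines: TGCgtgaatgttggaTGT
Txnrd1-201, selenocysteine codon: ggctgcTGAggt
Txnrd2-203, selenocysteine codon: ggttgcTGAggc

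The thioredoxin site lies in exon 2 of 5 of Txn1 at chr4:57951821-57951835 and in exon 3 of 4 of Txn2 at chr15:77924651-77924665, both on the minus strand of GRCm38. It had 13 of 15 bases in common between Txn2 and Txn1, with the cysteine codons identical. The flavin-side pair, which takes electrons from the flavin, lies in exon 4 of 14 of Txnrd1 at chr10:82877280-82877297 and in exon 4 of 18 of Txnrd2 at chr16:18437528-18437545, both on the plus strand. It had 16 of 18 bases in common between the reductases. In Gsr the same element crosses the junction of exon 1 and exon 2 of 13, at chr8:33653777-33669167 on the plus strand, and had 14 of 18 bases in common with Txnrd1. The selenocysteine codon lies in the last exon, exon 14, of Txnrd1 at chr10:82896031-82896042, with the TGA as codon 498 of 499. In Txnrd2 it lies in exon 17 of 18 at chr16:18477766-18477777, with the TGA as codon 526 of 527. The 12 bases around it had 10 in common between Txnrd2 and Txnrd1. GSR, unlike both thioredoxin reductases, is not a selenoprotein.

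The libraries held 20412826 and 18564086 expected counts in replicates 1 and 2. Levels are given in TPM, which corrects for transcript length and sums to 1000000 in each library. Detection here means at least 1 TPM in each of the libraries. All 8 erythroid markers were detected, with a summed level of 74032 and 84745 TPM, and 0 of 20 markers of mast cells, granulocytes and macrophages, lymphocytes, fibroblasts and endothelium were. The summed level of each of those lists was at most 0.55 TPM in either library. Among the 8 erythroid markers, Gata1 measured 2713.68 and 3180.1 TPM in replicates 1 and 2. The line was made from Gata1-null cells and carries a GATA-1 fusion, so detection of Gata1 follows from the design and does not bear on cell type. Of 4 megakaryocyte markers 3 were detected, with Pf4 the highest at 19.34 and 20.74 TPM and a summed level of 25.91 and 27.96 TPM. Adult globins took 10.6% and 12.2% of all TPM, which leaves a smaller part of the scale to every other gene.

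Of the 10 genes, 9 were detected, beside 41.2% of nuclear protein-coding genes. Gclm, Txn2 and Txnip reached 100 TPM or more in both libraries, which is 3 of 10 beside 5.47% of nuclear protein-coding genes, or 3 of 9 beside 13.3% of those detected. Txnip did not reach it on coding transcripts alone, where 2 of 10 genes did. All 9 detected genes lay above the median of detected protein-coding genes, with a median over the 10 of 62.6 TPM beside 20.7 TPM for detected genes. The detected genes spanned a 14.6-fold range of mean level, with Gclm at the top and Gsr at the bottom. Slc7a11 stood apart from the others, with fewer than 10 counts in each library. In RNA of whole cultures, a gene used by fewer cells and one with less RNA per cell cannot be told apart.

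**Figure D1:**
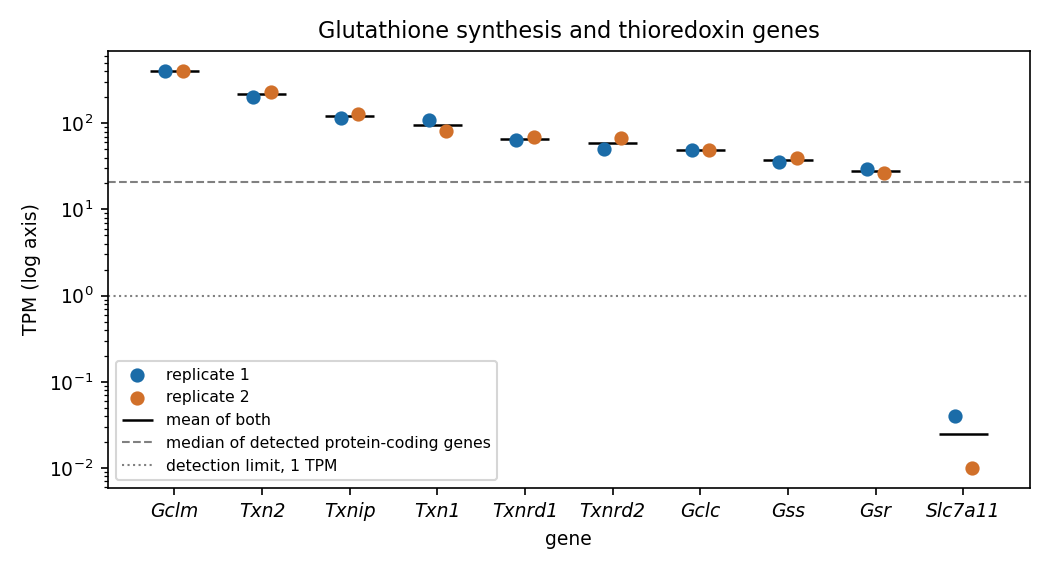
The level of each of the 10 genes in TPM (log axis), with a point for each of the 2 libraries and a bar for their mean, ordered by mean; the dashed line is the median of detected protein-coding genes and the dotted line the detection limit of 1 TPM. The 9 detected genes lie between 26.4 and 408 TPM in either library, all above the dashed line at 20.7 TPM, and Slc7a11 lies at or below 0.04 TPM.

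The subunits of glutamate-cysteine ligase were far apart. Gclc, on chromosome 9 from 77754535 to 77794485 (plus strand), measured 48.44 and 49.34 TPM in replicates 1 and 2, a mean of 48.9 ± 0.636 TPM (SD, n = 2), rank 2379 of 8840 detected genes. Gclm, on chromosome 3 from 122245557 to 122270732 (plus strand), measured 404.61 TPM in replicate 1 and 407.95 TPM in replicate 2, a mean of 406 ± 2.36 TPM (SD, n = 2), rank 260. The catalytic subunit therefore had 0.120 of the level of its modifier, a log2 ratio of -3.05 ± 0.01 (SD, n = 2), and the libraries of the 2 genes did not overlap. The size of that gap depended on which Gclm transcripts were counted. On complete coding transcripts alone Gclm had 133 ± 5.95 TPM, and the log2 ratio of Gclc over Gclm was -1.44 ± 0.08 (SD, n = 2), with the same direction.

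Gclm carried 6 listed transcripts, and most of its level was placed on a short one. Gclm-203, 648 bases long with 153 codons and an incomplete coding sequence in the annotation, took 57.4% of the gene's TPM in replicate 1 and 64.4% in replicate 2. Its share of the gene's expected counts was 34.3% and 42.2%, since TPM divides by length. All bases of Gclm-203 also lie in exons of other coding transcripts of the gene. The complete Gclm-206, of 1002 bases and 274 codons, took 26.4% and 26.1% of TPM, and the long Gclm-201, of 4841 bases and the same 274 codons, took 7.43% and 5.42% of TPM but 34.8% and 27.9% of counts. Complete coding transcripts thus held 33.9% and 31.5% of Gclm TPM, against 59.7% and 54.9% of its counts. Gclc has 1 listed transcript, Gclc-201, of 3423 bases and 637 codons, so all of its reads fall there by construction.

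Gss, the second enzyme of the pathway, lies on chromosome 2 from 155563181 to 155592810 (minus strand). It measured 35.82 TPM in replicate 1 and 39.79 TPM in replicate 2, a mean of 37.8 ± 2.81 TPM (SD, n = 2), rank 2927. It stood below Gclc in both libraries, with a log2 ratio of Gss over Gclc of -0.37 ± 0.09 (SD, n = 2). Complete coding transcripts of Gss summed to 22.4 ± 0.813 TPM, which put the ratio at -1.12 ± 0.03 (SD, n = 2). The leading transcript of Gss led by a small margin: Gss-203, with 405 codons, took 34.2% and 29.2% of TPM and Gss-201, with 474 codons, 26.8% and 28.6%. The non-coding Gss-209 took 19.3% and 19.6%, and the retained-intron Gss-207 11.9% and 16.3%. Acss2, an acetyl-CoA synthetase gene on the opposite strand, shares 395 of the 5915 exon bases of Gss and measured 74.18 and 84.14 TPM. Strand use in counting is not stated in the sources used here, so reads of the shared bases cannot be told apart.

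Gsr, which recycles glutathione, was the lowest detected gene of the 10. It lies on chromosome 8 from 33652523 to 33698163 (plus strand) and measured 29.37 TPM in replicate 1 and 26.39 TPM in replicate 2, a mean of 27.9 ± 2.11 TPM (SD, n = 2), rank 3680. Its counts scaled to the library total differed by less than counting error, with a ratio of replicate 1 over replicate 2 of 1.00 (exact 95% interval 0.914 to 1.09). The difference in TPM went with the split between transcripts: Gsr-201, the coding form of 500 codons, had 22 and 22.98 TPM, and the 718-base non-coding Gsr-202 had 7.37 and 3.40 TPM. Gsr-201, which holds the flavin-side cysteines shown above, took 74.9% and 87.1% of the gene's TPM and 92.0% and 96.3% of its counts. Against the other cytosolic disulfide reductase, the log2 ratio of Gsr over Txnrd1 was -1.25 ± 0.18 (SD, n = 2).

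Slc7a11, on chromosome 3 from 49892526 to 50443614 (minus strand), measured 0.04 TPM in replicate 1 and 0.01 TPM in replicate 2. These levels rest on 6.16 expected counts (exact Poisson 95% interval 2.20 to 13.1) and 1.02 expected counts (0.0253 to 5.57), where 3 counts correspond to 0.147 and 0.162 CPM of the library totals. All of them were placed on Slc7a11-201, which encodes 502 codons, and the intervals of the libraries overlap. Its obligate partner Slc3a2, the heavy chain that also pairs with other light chains, measured 105.16 and 113.72 TPM (109 ± 6.05, SD, n = 2). Slc7a5, a large neutral amino acid light chain of the same heavy chain, measured 80.34 and 88.16 TPM. The heavy chain was thus above 100 TPM in both libraries, and the cystine light chain at or below 0.04 TPM.

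The cytosolic thioredoxin stood below the mitochondrial one. Txn1, on chromosome 4 from 57943373 to 57956411 (minus strand), measured 109.95 and 81.09 TPM in replicates 1 and 2, a mean of 95.5 ± 20.4 TPM (SD, n = 2), rank 1287. Txn2, on chromosome 15 from 77915047 to 77929006 (minus strand), measured 203.04 TPM in replicate 1 and 228.62 TPM in replicate 2, a mean of 216 ± 18.1 TPM (SD, n = 2), rank 531. The libraries of the 2 genes did not overlap, and the log2 ratio of Txn1 over Txn2 was -0.88 in replicate 1 and -1.495 in replicate 2, a mean of -1.19 ± 0.43 (SD, n = 2). On complete coding transcripts the ratio was -0.67 ± 0.42 (SD, n = 2), with Txn2 at 151 ± 11.7 TPM.

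All of the Txn1 reads fall by construction on a transcript that encodes the active-site cysteines, since Txn1-201, of 105 codons, is its single listed transcript. In Txn2, transcripts with the site held 79.3% and 86.3% of TPM in replicates 1 and 2, and 94.8% and 96.6% of counts. Txn2-201, with 166 codons, led with 67.9% and 67.1% of TPM. Txn2-205, a 266-base transcript with no coding sequence, took 19.7% and 12.9% of TPM but 4.58% and 2.95% of counts. Txn2-206, which is incomplete in the annotation, took 9.83% and 16.6% of TPM. The level of Txn2 on transcripts that hold the site was 179 ± 25.7 TPM (SD, n = 2), above that of Txn1 in both libraries.

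The reductases were close to each other. Txnrd1, on chromosome 10 from 82833951 to 82897712 (plus strand), measured 64.13 TPM in replicate 1 and 68.77 TPM in replicate 2, a mean of 66.5 ± 3.28 TPM (SD, n = 2), rank 1799. Txnrd2, on chromosome 16 from 18426384 to 18479073 (plus strand), measured 50.87 and 66.81 TPM in replicates 1 and 2, a mean of 58.8 ± 11.3 TPM (SD, n = 2), rank 2010. The ranges overlapped, and the log2 ratio of Txnrd1 over Txnrd2 was 0.19 ± 0.21 (SD, n = 2), within its own spread. On complete coding transcripts, where Txnrd2 summed to 39.3 ± 8.72 TPM, the ratio was 0.78 ± 0.25 (SD, n = 2).

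Transcripts that hold the bases of the selenocysteine codon made up only part of Txnrd2. Those with counts were Txnrd2-203 and the decay target Txnrd2-202, in which the reading frame was not checked. Together they took 71.1% and 70.9% of its TPM and 89.8% and 89.4% of its counts, a level of 41.8 ± 7.91 TPM (SD, n = 2). Transcripts with the bases of the flavin-side cysteines took 99.8% and 98.8% of TPM. The most abundant forms that lack the codon were short and incomplete in the annotation: Txnrd2-208, of 592 bases, took 15.9% and 20.2% of TPM and Txnrd2-206, of 482 bases, 12.3% and 6.77%. Txnrd2-203, of 527 codons, led with 64.6% and 67.0%, and the decay target Txnrd2-202 took 6.55% and 3.91%. Txnrd1-201, of 499 codons, is the single listed transcript of Txnrd1 and holds both sites.

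Txnip was the third most abundant of the 10 over all its transcripts. It lies on chromosome 3 from 96557957 to 96561883 (plus strand) and measured 114.07 TPM in replicate 1 and 127.64 TPM in replicate 2, a mean of 121 ± 9.60 TPM (SD, n = 2), rank 1028. Set against the thioredoxin it binds, the log2 ratio of Txnip over Txn1 was 0.05 in replicate 1 and 0.65 in replicate 2, a mean of 0.35 ± 0.43 (SD, n = 2), so the excess was smaller than the spread. On coding transcripts alone the direction turned round, with Txnip at 43.6 ± 1.56 TPM and a ratio of -1.11 ± 0.36 (SD, n = 2), below 0 in both libraries.

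Most of the Txnip level was placed on short non-coding transcripts. Txnip-204, of 599 bases and wholly within exons of the coding forms, took 32.9% and 29.0% of TPM in replicates 1 and 2, and the 393-base retained-intron Txnip-203 took 28.4% and 33.7%. The coding Txnip-201 (396 codons) took 19.3% and 19.1% and Txnip-202 (397 codons) 18.03% and 15.9%. Coding transcripts together held 37.3% and 35.0% of TPM but 77.9% and 76.8% of counts. Txnip was assigned 2429 and 2360 expected counts, against 29.76 and 23.16 for the antisense gene Gm15441, which overlaps 606 of its 3123 exon bases and whose reads there cannot be told apart. Of the 36-base stretches of Txnip, 82.6% occur in no other gene, the lowest share of the 10.

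Over the 10 genes, no transcript held more than 90% of the TPM of its gene in either library in 6 (Gclm, Gss, Gsr, Txn2, Txnrd2 and Txnip), of 9 with 20 counts or more in both. The same held for 55.3% of nuclear protein-coding genes at that depth, and for 74.2% of those with several listed transcripts, where the 10 genes had 6 of 6. By share of counts 5 genes met this limit. Under 90% of TPM lay on coding transcripts in 4 of the 9 detected genes (Gss, Gsr, Txn2 and Txnip), beside 39.4% of detected nuclear protein-coding genes.

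**Figure D2:**
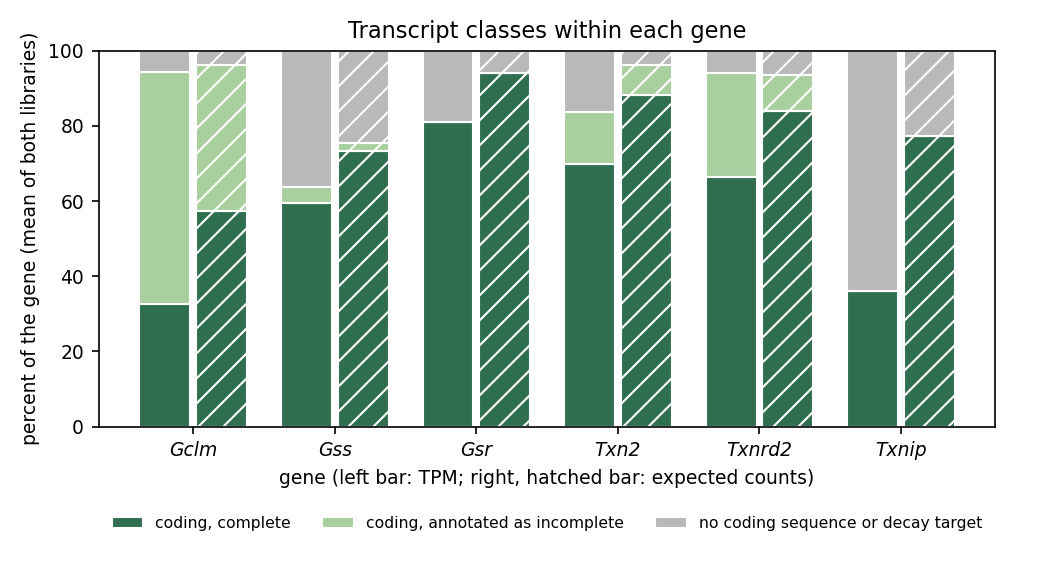
The percent of each gene on complete coding transcripts, on coding transcripts annotated as incomplete and on transcripts with no coding sequence or marked for decay (mean of both libraries), for the 6 genes with several transcripts in use; the left bar is the share of TPM and the hatched right bar the share of expected counts. In every one of these genes the complete coding class takes a larger part of the counts than of the TPM, and the gap is widest in Txnip.

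**Figure D3:**
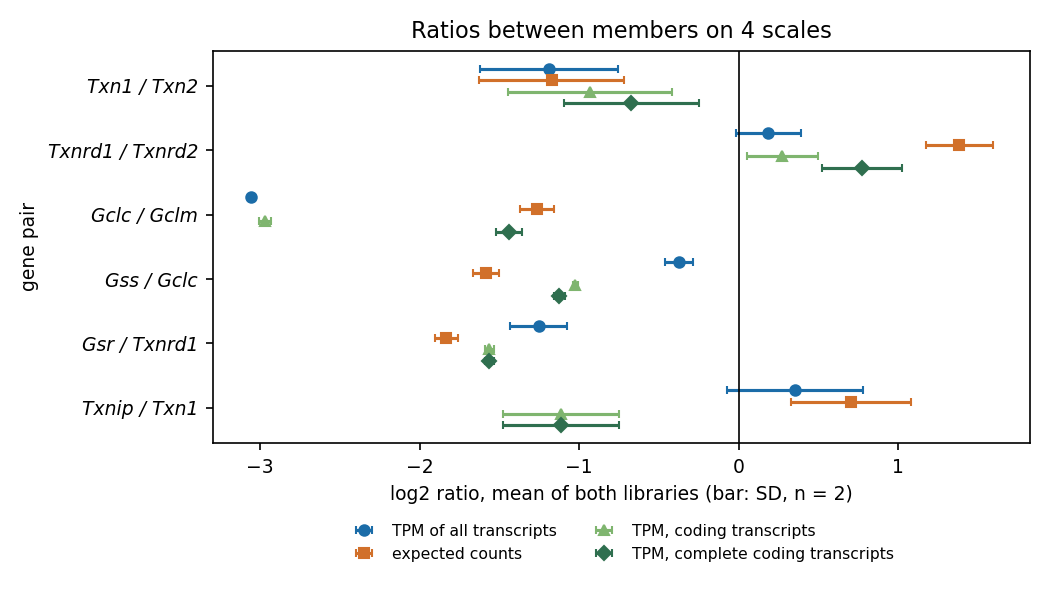
The log2 ratio of 6 pairs of genes on 4 scales: TPM of all transcripts, expected counts, TPM of coding transcripts and TPM of complete coding transcripts; points are means of both libraries and bars the SD (n = 2). Txn1 over Txn2 and Gclc over Gclm lie below 0 on each scale, and Txnip over Txn1 lies at 0.35 on all transcripts and at -1.11 on coding ones.

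The order of levels from Gclm through Txn2, Txnip, Txn1, Txnrd1, Txnrd2, Gclc, Gss and Gsr to Slc7a11 was the same within each library. Between neighbours, the ranges over both libraries overlapped for Txnrd1 and Txnrd2 and were apart for the other 8 pairs. Txnip and Txn1 were narrowly apart, with 114.07 TPM as the lower Txnip library and 109.95 TPM as the higher Txn1 library, and so were Txnrd2 and Gclc, at 50.87 and 49.34 TPM. On complete coding transcripts the order was Txn2, Gclm, Txn1, Txnrd1, Gclc, Txnip, Txnrd2, Gsr, Gss and Slc7a11, with overlaps between Txnip and Txnrd2 and between Gsr and Gss. Txn2 then exceeded Gclm narrowly, at 142.36 TPM in its lower library against 136.99 TPM in the higher Gclm library.

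Agreement between the libraries was close for most of the 10 genes. Of the detected genes 0 of 9 differed by more than 1.5-fold between replicate 1 and replicate 2 in counts scaled to the library total, beside 2.42% of nuclear protein-coding genes with a mean count of 50 or more. Their median absolute log2 ratio was 0.12, beside 0.14 over those 8591 genes. Txn1 was the furthest apart, with a ratio of replicate 1 over replicate 2 of 1.35 (exact 95% interval 1.26 to 1.46), further than 92.9% of genes. Txnrd2 differed the other way at 0.758 (0.701 to 0.818), further than 91.1% of genes. Txn2 had a ratio of 0.867 (0.825 to 0.910), and the remaining 6 detected genes lay between 0.904 and 1.09. Each library stands alone on its side of these ratios, so the intervals cover counting error and no test was made.

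**Figure D4:**
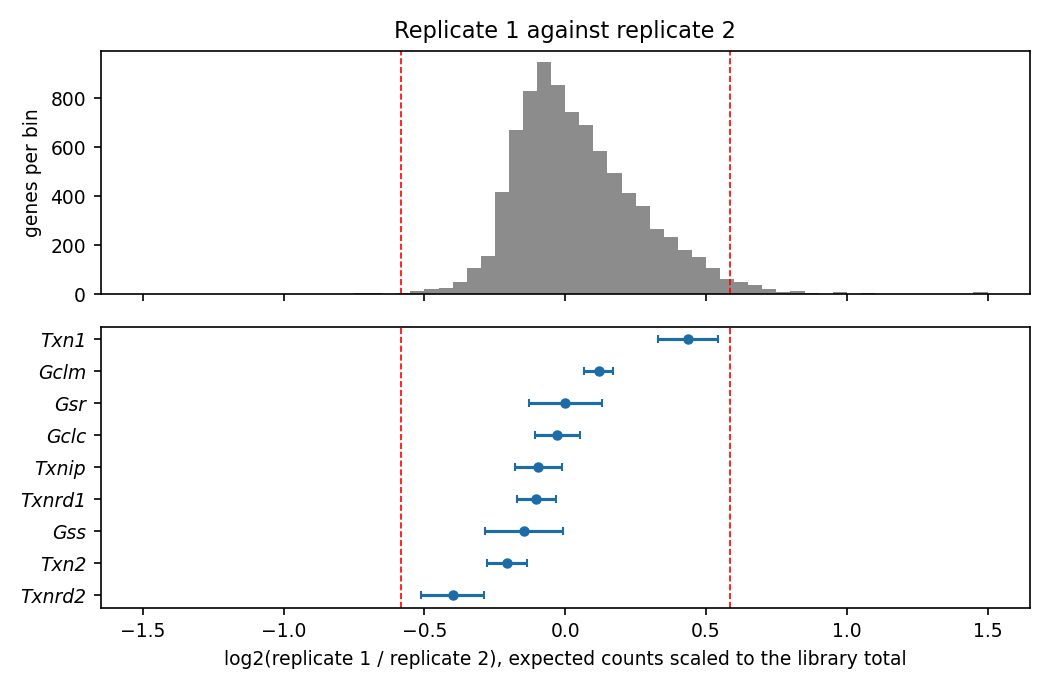
Upper panel: the number of nuclear protein-coding genes by log2 ratio of replicate 1 over replicate 2 in scaled expected counts, with ratios beyond the axis drawn in the end bins. Lower panel: the same ratio for the 9 detected genes with exact 95% counting intervals; dashed lines mark 1.5-fold. All 9 genes lie between the dashed lines, with Txn1 at 1.35 and Txnrd2 at 0.758 nearest to them.

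Most of the transcript sequence of these genes occurs nowhere else. The share of 36-base stretches found in no other gene was 100% for Gclc, Gsr and Txnrd1, 98.7% for Txn2, 96.9% for Txnrd2, 96.8% for Slc7a11, 94.98% for Txn1, 94.1% for Gclm and 88.1% for Gss. Txn1, with 1792 and 1204 counts, shared stretches only with its pseudogene Txn-ps1, which was assigned 2.77 and 0 counts. Gclm, with 6659 and 5574 counts in replicates 1 and 2, holds a pseudogene on its own strand, Gm6061, which was assigned 0 and 17.95 counts.

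Start-site windows from RefSeq (GRCm38.p6, 250 bases before to 50 after a start) were found for 8 of the 10 genes, 10 windows in all. Gclc and Gsr had none, and Txnrd1 had several, beginning at 82833701, 82858956 and 82860091. The antioxidant response element core TGACNNNGC, bound by NRF2 with small MAF proteins and by BACH1, was searched on both strands and occurs in 2 of the 10 windows, beside 12.4% of 32817 windows of all genes. Both matches are printed in capitals, as they read on the gene's strand, with the window of Slc7a11 beside them as that of the gene near 0.
Gclm, chr3:122245307-122245606, plus strand: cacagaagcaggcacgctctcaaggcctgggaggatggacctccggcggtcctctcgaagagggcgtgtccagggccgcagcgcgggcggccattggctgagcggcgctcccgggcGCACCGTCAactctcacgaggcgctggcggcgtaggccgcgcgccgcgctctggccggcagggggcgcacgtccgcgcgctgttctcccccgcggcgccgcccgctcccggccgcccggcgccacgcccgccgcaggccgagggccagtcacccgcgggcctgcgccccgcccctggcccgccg
Txnrd1, chr10:82858956-82859255, plus strand: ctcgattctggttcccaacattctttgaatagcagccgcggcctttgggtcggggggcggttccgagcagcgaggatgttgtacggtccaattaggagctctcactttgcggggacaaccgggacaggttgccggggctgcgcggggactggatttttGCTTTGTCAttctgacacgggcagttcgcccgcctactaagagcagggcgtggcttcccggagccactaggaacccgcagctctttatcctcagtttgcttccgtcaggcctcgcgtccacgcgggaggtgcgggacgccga
Slc7a11, chr3:50443564-50443863, minus strand: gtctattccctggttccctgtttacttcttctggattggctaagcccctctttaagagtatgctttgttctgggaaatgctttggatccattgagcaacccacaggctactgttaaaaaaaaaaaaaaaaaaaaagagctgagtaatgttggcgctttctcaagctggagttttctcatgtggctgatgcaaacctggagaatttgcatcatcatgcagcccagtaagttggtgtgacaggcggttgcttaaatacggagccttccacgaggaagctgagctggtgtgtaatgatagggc

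The match begins at position -134 from the start in Gclm and at position -92 in Txnrd1, on the strand opposite to the gene in both. The other windows, that of Slc7a11 and the other windows of Txnrd1 among them, hold no such letters. The E-box CACGTG, searched as a core of the carbohydrate response element, and the GATA-type motif AGATAA were in 0 of the 10 windows, beside 7.15% and 11.2% of all windows. Only these exact letters were searched, so the counts do not show that either kind of element is absent. The near form CACGAG is in the Txnip window and also in the printed windows of Gclm and Slc7a11. The Slc7a11 window also holds TGATAG. Neither of these forms was searched, so no share over all windows is given for them. CCAAT was in 5 of 10 (Slc7a11, Txnip, Gclm, the printed window of Txnrd1, and Txn2), beside 37.4%. TATAAA was in 1 (Txn1, at position -160), beside 13.6%. Here too only exact letters were searched, and the Txnip window holds TATATAAG, which was not. The GC content of the printed windows was 79.7% in Gclm, 61.3% in Txnrd1 and 44.7% in Slc7a11, beside a median of 52.7% over all windows. These are descriptions of letters in short windows, and binding was not measured.

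Of 141 other genes in 7 lists around the pathway, 115 were detected and 27 reached 100 TPM in both libraries, where 41.2% of all nuclear protein-coding genes were detected and 5.47% reached 100 TPM. The median of a list can be set beside 0.08 TPM over all those genes and 20.7 TPM over the detected ones. Levels in the lists are TPM over all transcripts of a gene, coding or not. In the list for the supply of cystine, cysteine and glutamate, 13 of 18 genes were detected (72.2%, beside 41.2% of all nuclear protein-coding genes), with a median of 15.1 TPM. With 1 gene at 100 TPM or more, 5.56% of the list, it was close to the 5.47% of nuclear protein-coding genes. Slc3a2 led, followed by Slc7a5 and by Mat2b, the regulatory subunit of methionine adenosyltransferase, at 74.9 ± 4.74 TPM (SD, n = 2). Coding transcripts held 33.4% of Mat2b TPM. The transsulfuration enzymes that make cysteine from homocysteine were at the bottom, with Cbs at 0.13 and 0.03 TPM and Cth at 0 counts in both libraries. Bhmt measured 0.03 and 0.05 TPM, and the transporters Slc38a1 and Slc1a1 had 0 counts.

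In the list for glutathione use, turnover and transport, 23 of 33 genes were detected (69.7%, beside 41.2% of nuclear protein-coding genes) and 6 stood at 100 TPM or more (18.2%, beside 5.47%), with a median of 16.0 TPM. The glutathione peroxidases Gpx1, at 1994 ± 25.4 TPM, and Gpx4, at 1036 ± 7.25 TPM (SD, n = 2), led the list. Coding transcripts held 67.8% of Gpx4 TPM. Slc25a39, a mitochondrial glutathione importer, followed at 413.71 TPM in replicate 1 and 500.42 TPM in replicate 2. Of 6 genes for the breakdown of glutathione, 2 were detected, Chac2 at 4.26 and 3.06 TPM and Ggct at 3.66 and 1.82 TPM in replicates 1 and 2. Oplah measured 1.64 and 0.92 TPM, and Chac1, Ggt1 and Ggt7 had 0 counts. Of 12 transferases, 6 were detected, with Mgst3 at 59.5 ± 6.70 TPM, Gstp1 at 46.7 ± 7.97 TPM and Gstt2 at 31.8 ± 0.877 TPM the highest and Gstz1, Gsto1 and Gsta4 between 1.18 and 30.02 TPM in mean (SD, n = 2). Gstm1, Gstm5, Gstk1 and Mgst1 had 0 counts, and Mgst2 and Gstt1 measured 0.29 and 0.32 TPM, and 0.28 and 0.27 TPM, in replicates 1 and 2.

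In the list of thioredoxin clients and relatives, 25 of 31 genes were detected (80.6%, beside 41.2% of nuclear protein-coding genes) and 6 stood at 100 TPM or more (19.4%, beside 5.47%), with a median of 19.0 TPM. The peroxiredoxins Prdx2, at 1490 ± 37.1 TPM, Prdx6, at 1290 ± 79.2 TPM, and Prdx3, at 287 ± 6.92 TPM (SD, n = 2), led, although 14.8% of Prdx6 TPM lay on coding transcripts. Of these Prdx3 is the mitochondrial client of Txn2. Txnrd3, a reductase best known from testis, measured 0.64 TPM in each library, far below Txnrd1 and Txnrd2. Map3k5, the kinase held by thioredoxin, measured 0.37 and 0.31 TPM and Msrb3 0.03 and 0.13 TPM, and Msrb2, Sesn3 and Txndc16 had 0 counts.

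In the list for NADPH supply, on which both reductase systems draw, 15 of 16 genes were detected (93.8%, beside 41.2% of nuclear protein-coding genes) and 6 stood at 100 TPM or more (37.5%, beside 5.47%), with a median of 62.3 TPM. Tkt, a transketolase, stood at 1650 ± 248.6 TPM, Taldo1, a transaldolase, at 533 ± 20.7 TPM and Me2, a mitochondrial malic enzyme, at 248 ± 1.76 TPM (SD, n = 2). Coding transcripts held 49.5% of Tkt TPM, a mean of 817 TPM. Mthfd2l was the lowest at 0.53 and 0.78 TPM. In the list of selenocysteine machinery, needed to read the UGA codon of both thioredoxin reductases, 10 of 10 genes were detected (beside 41.2% of nuclear protein-coding genes) and 1 stood at 100 TPM or more (10%, beside 5.47%), with a median of 23.2 TPM. Sars, which charges the tRNA with serine, stood at 287 ± 41.9 TPM, Pstk, the kinase of the next step, at 37.2 ± 4.93 TPM and Sephs2, which makes selenophosphate, at 37.0 ± 2.68 TPM (SD, n = 2). Coding transcripts held 16.5% of Pstk TPM, a mean of 6.14 TPM, and 100% of Sephs2 TPM. Secisbp2, which binds the selenocysteine insertion element, stood at 24.7 ± 1.73 TPM, and the lowest, Scly, at 5.71 ± 0.134 TPM (SD, n = 2).

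In the list of KEAP1-NRF2 and ATF4 control and targets, 22 of 24 genes were detected (91.7%, beside 41.2% of nuclear protein-coding genes) and 6 stood at 100 TPM or more (25.0%, beside 5.47%), with a median of 42.6 TPM. Nfe2l2, which encodes the activator NRF2, stood at 66.6 ± 0.926 TPM, its inhibitor Keap1 at 29.4 ± 0.587 TPM, the repressor Bach1 at 49.3 ± 5.85 TPM and Atf4, an amino acid stress factor, at 57.9 ± 4.36 TPM (SD, n = 2). The ferritin genes Ftl1, at 10766 ± 451 TPM, and Fth1, at 2798 ± 183 TPM, led with Blvrb, a biliverdin reductase, at 1924 ± 137 TPM (SD, n = 2). Ferritin genes have near-identical processed copies, so the split of their reads is uncertain. Coding transcripts held 53.4% of Ftl1 TPM over both libraries, but the libraries differed. They held 3373.08 of 11085.29 TPM in replicate 1 and 8126.14 of 10447.36 TPM in replicate 2. Atf3 and Bach2 had 0 counts.

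In the list of alpha-arrestins and the MondoA-MLX factors that control Txnip in other cells, 9 of 11 genes were detected (81.8%, beside 41.2% of nuclear protein-coding genes) and 1 stood at 100 TPM or more (9.09%, beside 5.47%), with a median of 17.9 TPM. Slc2a1, the glucose transporter that TXNIP removes from the membrane, led at 243 ± 14.2 TPM, followed by Max at 66.6 ± 1.67 TPM and Mlx at 24.0 ± 0.877 TPM (SD, n = 2). Mlxip, which encodes MondoA, stood at 18.9 ± 1.05 TPM (SD, n = 2). Its relative Mlxipl measured 0 and 0.09 TPM, and the arrestin Arrdc4, another MondoA target, had 0 counts in both libraries.

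**Figure D5:**
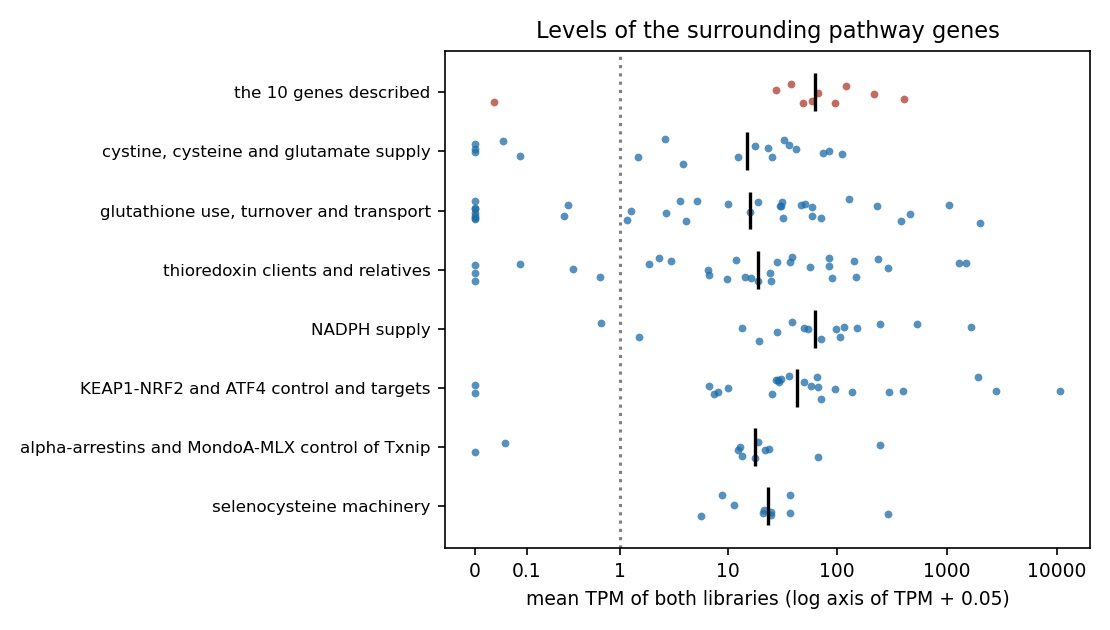
The mean TPM of both libraries (log axis of TPM + 0.05) for the 10 genes and for each gene of the 7 lists around them, with a black bar at the median of each row; the dotted line marks 1 TPM. The median of the 10 genes, 62.6 TPM, and that of NADPH supply, 62.3 TPM, are the highest of the rows, and every row but the selenocysteine machinery has genes below the dotted line.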

How the data were processed

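Polyadenylated RNA was sequenced single-end in 2 libraries of 1 group, with 20412826 and 18564086 expected counts. Per the deposited file manifests, reads were quantified on mm10 with GENCODE M4, and aligner, quantifier and strand use in counting are not stated there. The authors, per the file headers, deposited an expected count, TPM, posterior mean TPM and, for transcripts, the percent of a gene's TPM. The expected count is an estimate that shares ambiguous reads, and TPM divides it by effective length, so short transcripts rise on that scale. Effective length falls short of length by 1 base less than a read of 36 bases.

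Symbols, transcript classes and coordinates came from GENCODE M21 on the same assembly, in which 51 of the 52 listed transcripts of the 10 genes were found. Levels are means and SDs over both libraries. A gene was detected at 1 TPM or more in both. Leading transcripts were assessed with 20 counts or more in both libraries. Counts were scaled to the library total for ratios between libraries, over genes of mean count 50 or more, with exact Clopper-Pearson intervals. Intervals cover counting error only, since reads carried no molecular identifiers. With 1 group no test was possible and no p-value is given. Biological replicates are taken from the labels, which do not say whether cultures were separate, so the SD may be partly technical. The counting of genes past a fold was checked on simulated data. Python 3 libraries pandas 2.3.3 and scipy 1.17.1 and, for TMM scaling, edgeR 4.0.16 in R 4.3.3 were used.

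All 10 genes are named. Of each list, the 3 highest, the lowest and every gene below 1 TPM in both libraries are named, together with partners and regulators of the 10 genes. The transferases and breakdown genes of glutathione named beyond this rule were chosen after their values were seen. The genes and lists were chosen with earlier results of these data known. Alternatives were TPM of coding transcripts, posterior mean TPM, expected counts, TMM scaling, a detection limit of 5 TPM, TPM rescaled without adult globin and mitochondrial genes, and each library left out.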

Additional observations from a re-analysis of the deposited data

How the results depend on the processing

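Counts of detected genes, 9 of 10, and of genes at 100 TPM, 3, moved little: at 5 TPM 9 were detected, on coding transcripts 2 reached 100 TPM (Gclm and Txn2), and without replicate 2 4 did. The number of genes past 1.5-fold between libraries was 0, and 1 with no minimum count, which is Slc7a11 at 6.16 and 1.02 counts. The ratio of Txnip over Txn1 reversed to -1.11 on coding transcripts and to -1.11 on complete coding transcripts, from 0.35 on all. The other ratios kept their sign and changed in size, and each of these values is a log2 ratio. On complete coding transcripts, an alternative chosen after seeing the data, they were -0.67 for Txn1 over Txn2, 0.78 for Txnrd1 over Txnrd2, -1.44 for Gclc over Gclm, -1.12 for Gss over Gclc and -1.56 for Gsr over Txnrd1. On coding transcripts they were -2.97 for Gclc over Gclm, -1.02 for Gss over Gclc and -1.56 for Gsr over Txnrd1. On expected counts, which are not corrected for length, they were 1.38 for Txnrd1 over Txnrd2, -1.26 for Gclc over Gclm, -1.59 for Gss over Gclc and -1.83 for Gsr over Txnrd1. The removal of short transcripts or of the length correction is what these settings do by construction. In single libraries Txnrd1 over Txnrd2 lay between 0.04 and 0.33 and Txnip over Txn1 between 0.05 and 0.65. With 2 libraries, leaving 1 out cannot move a mean by more than its SD. Rescaling without adult globin and mitochondrial genes multiplied every level by 1.19 and 1.21 in replicates 1 and 2, and left the order of the 10 genes as it was within each library. No paired analysis was possible because both libraries belong to 1 group. Depth limits Slc7a11, whose levels rest on 6.16 and 1.02 counts.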
